A study of Homo sapiens with 4 samples.

Results

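Chemokines and cytokines are small secreted proteins by which a cell attracts leukocytes or alters the state of neighbouring cells. The 10 genes described here are the CC chemokines CCL2 and CCL7, the CXC chemokines CXCL1, CXCL2, CXCL3, CXCL5 and CXCL12, the cytokines IL6 and LIF, and C3AR1, the receptor for the complement fragment C3a. Transcription factors such as NF-κB and AP-1 drive many genes of this kind, and their mRNAs are often short-lived. The 10 genes were selected on values of these same arrays, with the contrast between hypoxia and control known, so the differences between hypoxia and control are given as a description and without a test. Each of the 10 genes has 1 probe set that names it alone in the platform annotation, out of 18417 genes with such a probe set.

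HT1080, an established human fibrosarcoma line, was incubated in low-serum medium for 36 h at 1% oxygen (hypoxia) or at 21% oxygen (control). For both groups total RNA was measured and, beside it, ER-RNA, the RNA that copurified with an endoplasmic reticulum fraction from a commercial isolation kit, and cells for the subcellular fractions were treated with cycloheximide beforehand. This gave 4 Affymetrix Human Gene 1.0 ST arrays, each carrying a pool of RNA from 5 experiments. With a single array for each combination there is no spread between replicates, no error can be put on a value, and no p-value is given.

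All values are RMA values on the log2 scale. The medians over all 33297 probe sets were 7.49 in hypoxia and 7.41 in control for total RNA, and 6.34 in hypoxia and 6.25 in control for ER-RNA, so hypoxia was set against control within a fraction. A gene was taken as expressed if its value exceeded the array median in hypoxia, in control or in both. It was called lower or higher where the fold between hypoxia and control was over 1.4 and the z-score was over 3 in size. The z-score is the log2 difference divided by an SD fitted to the expression level. That SD describes single values of a pair and is smaller than the SD of a difference between them. A z-score of 3 is thus a weaker limit than 3 SDs of the differences. Of the mesenchymal markers of the line, 7 of 10, with VIM and FN1 among them, exceeded the array median on all 4 arrays. THY1 and NT5E were below it on all 4, and S100A4 was above it only in ER-RNA in hypoxia. Of 5 epithelial markers, KRT8, KRT18 and KRT19 exceeded the median on every array, while EPCAM and CDH1 were below it. Of 5 endothelial markers, none exceeded it in total RNA and PECAM1 did on both ER-RNA arrays. Of 13 leukocyte markers, 3 were above the median on each total RNA array and 5 on each ER-RNA array, CD68, TYROBP and SPI1 on every array, while the pan-leukocyte marker PTPRC read 4.65 in hypoxia and 4.67 in control in total RNA and 3.55 in hypoxia and 3.24 in control in ER-RNA. The linear values of these 13 markers summed to 4147 in hypoxia and 4524 in control in total RNA and to 2144 in hypoxia and 1490 in control in ER-RNA. CD68, the brightest of them, weighs most in these sums. It read 11.40 in hypoxia and 11.62 in control in total RNA, and 10.40 in hypoxia and 9.63 in control in ER-RNA. The part of the 13 markers in the results below was not tested. Of 10 hypoxia-response genes used to check the labels, 10 were called higher in total RNA and 9 in ER-RNA, HK2 being the exception.

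CCL2, LIF and C3AR1 were called lower in hypoxia in total RNA, and CCL2 and C3AR1 also in ER-RNA. No member was called higher. In a bulk sample, fewer cells that carry a transcript and less of it per cell cannot be told apart. In total RNA, 4 of the 10 members were expressed (CCL2, CXCL1, LIF and C3AR1) and 3 of them were called lower, while 7.45% of all 11530 expressed genes were called lower and 2.32% higher. In ER-RNA, 6 of the 10 were expressed (CCL2, CXCL3, CXCL5, IL6, LIF and C3AR1) and 2 were called lower, while 8.25% of 11876 expressed genes were called lower and 1.12% higher. By the fold alone, 3 members were lower and 0 higher in each fraction, against a background of 18.6% lower and 6.2% higher in total RNA and of 21.4% lower and 6.53% higher in ER-RNA. Since the members were chosen with these contrasts known, nothing is read from their shares. Over all 10 members, expressed or not, 5 were lower and 5 higher in each fraction, and the signs of the small differences of CCL7 and CXCL12 in total RNA and of CXCL1 and CXCL2 in ER-RNA turned under another normalization. Their log2 differences had a median of -0.0084 in total RNA, beside 0.026 over all 18417 genes, and of -0.16 in ER-RNA, beside 0.057. The median thus does not describe the members, whose log2 differences spanned -2.58 to 0.38 in total RNA and -2.25 to 0.43 for ER-RNA.

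**Figure D1:**
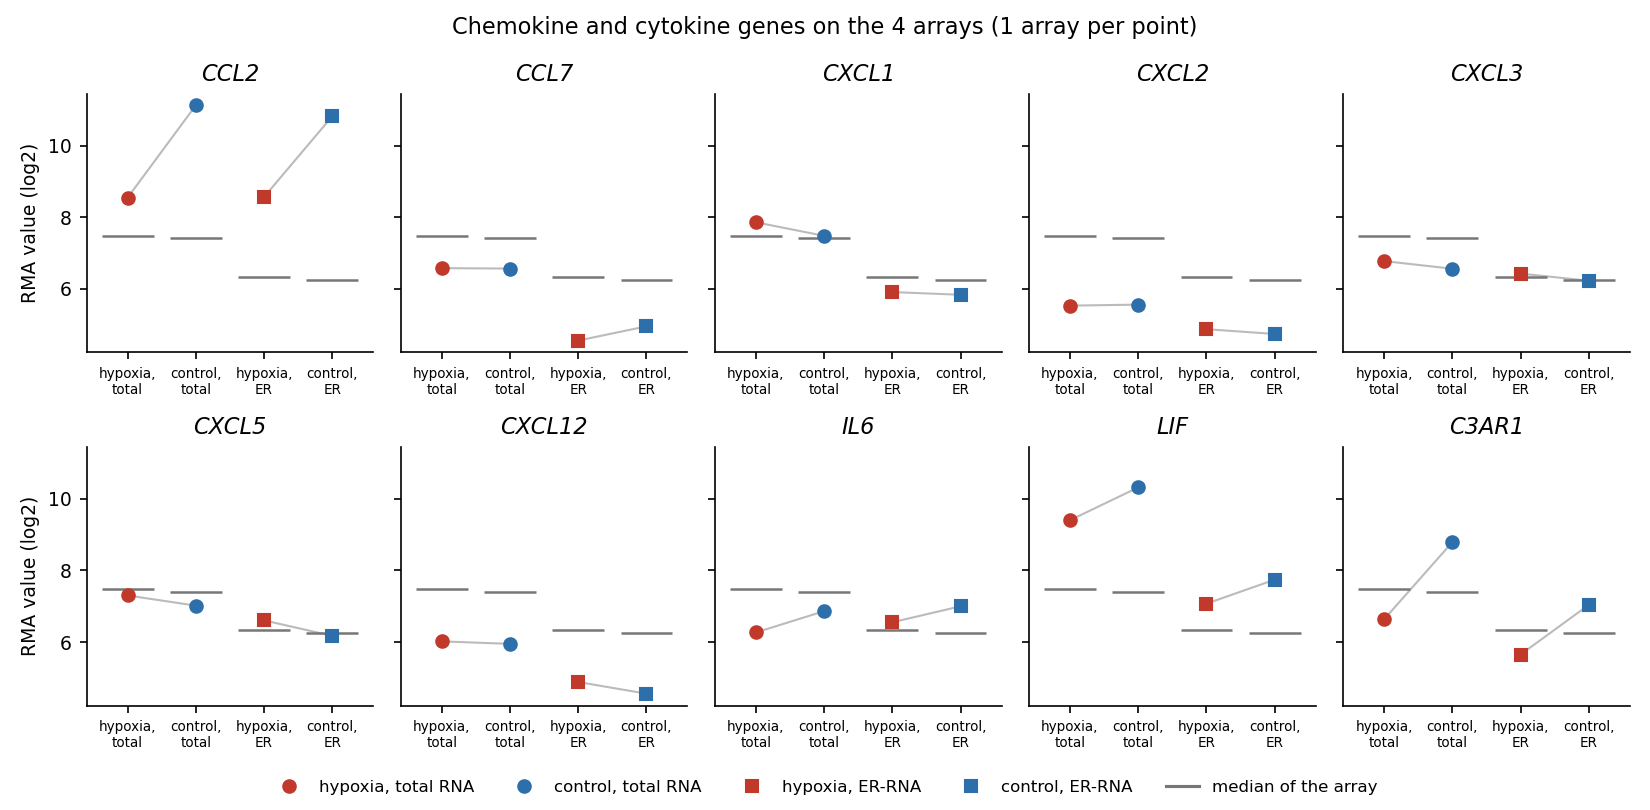
RMA value (log2) of each of the 10 genes on each of the 4 arrays, for total RNA (circles) and ER-RNA (squares), in hypoxia (red) and control (blue). Grey bars are the array medians and grey lines join the arrays of a fraction. CCL2 lies above the median on all 4 arrays, and C3AR1 lies above it in control and below it in hypoxia.

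CCL2, also known as monocyte chemoattractant protein 1, draws monocytes through its receptor CCR2. Its log2 value was 8.54 in hypoxia and 11.13 in control in total RNA, and 8.56 in hypoxia and 10.82 in control in ER-RNA. Both hypoxia values were well below both control values, although all 4 remained above their array medians. CCL2 fell to 0.167 of its control level in total RNA, a log2 difference of -2.58 with a z-score of -9.17, and to 0.210 in ER-RNA, a log2 difference of -2.25 with a z-score of -6.95. CCL2 was still called in both fractions when the scaled MAD (median absolute deviation) gave the SD. Its z-scores were then smaller in size, at -5.87 in total RNA and -4.04 in ER-RNA. Ordered by log2 difference, CCL2 took rank 1 from the bottom of 11530 expressed genes in total RNA and rank 8 of 11876 in ER-RNA. Under the other normalizations, filters and probe set choices it held rank 1 in total RNA, and its rank in ER-RNA was between 2 and 10. CCR2 itself was below the expression filter on all 4 arrays, at 5.33 in hypoxia and 5.59 in control in total RNA.

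C3AR1 encodes the G protein-coupled receptor for C3a, a peptide released from complement C3, and is best known from myeloid cells. Its log2 value was 6.63 in hypoxia and 8.79 in control in total RNA, and 5.65 in hypoxia and 7.04 in control in ER-RNA. It fell to 0.224 of control in total RNA (z-score -8.94) and to 0.382 in ER-RNA (z-score -4.68). In each fraction only the control array exceeded the median, so C3AR1 passed the filter through the condition in which it was high, and a filter asking this of both arrays, or set at the 75% quantile, removed it from both comparisons. When the SD was fitted on probe sets that name exactly 1 gene, its z-score in ER-RNA was -2.76 and the call was lost. C3, which encodes the precursor of its ligand, read 8.11 in hypoxia and 8.12 in control in total RNA and 6.34 in hypoxia and 6.20 in control in ER-RNA, and was not called. The 300-base promoter window of C3AR1 holds a match to the AP-1 motif TGANTCA 133 bases upstream of the start site, shown in capitals (GRCh38.p14, chr12:8066476-8066502, minus strand, upstream of the transcribed region).
C3AR1: catttagaaaTGACTCActttgaaact
This motif occurs in 7.71% of 35116 RefSeq promoter windows, searched on both strands. CCL7 is the other member with a match.

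LIF signals through LIFR and the shared subunit gp130, which IL6ST encodes. LIF read 9.40 in hypoxia and 10.32 in control in total RNA, and 7.07 in hypoxia and 7.74 in control in ER-RNA, with all 4 values above the array medians. In total RNA it fell to 0.530 of control, with a z-score (-3.26) just past the threshold of 3. In ER-RNA it stood at 0.629 of control with a z-score of -2.63 and was not called. The call in total RNA was lost after quantile normalization (z-score -2.94), after a loess fit within the pair (-2.99), when the scaled MAD gave the SD (-2.08) and at a 2-fold threshold. LIFR was called in the opposite direction in total RNA, where it rose 1.84-fold with 9.21 in hypoxia and 8.34 in control. In ER-RNA its values were 6.89 in hypoxia and 6.29 in control, a 1.52-fold difference that was not called (z-score 2.38). IL6ST was called in neither fraction, at 10.93 in hypoxia and 10.75 in control in total RNA and at 9.52 in hypoxia and 9.45 in control in ER-RNA. The call of LIFR in total RNA was also lost after subtraction of the array medians, when the scaled MAD gave the SD, and at the stricter fold or 75% quantile.

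IL6 uses the same gp130 subunit, with IL6R as its own receptor chain. Its log2 value was 6.27 in hypoxia and 6.86 in control in total RNA, both below the array medians, and 6.55 in hypoxia and 7.00 in control in ER-RNA, both above them. The hypoxia value was the lower in both fractions, at 0.662 of its total RNA control and 0.734 of its ER-RNA control, and IL6 was called in neither. In total RNA it did not pass the expression filter. Without that filter it was called lower there, with a z-score of -3.33. IL6R was below the filter in ER-RNA at 6.10 in hypoxia and 5.71 in control, and in total RNA at 7.42 in hypoxia and 7.32 in control.

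CCL7, a chemoattractant of monocytes that is closely related to CCL2, lies next to it on chromosome 17. It read 6.58 in hypoxia and 6.56 in control in total RNA and 4.55 in hypoxia and 4.95 in control in ER-RNA, below the median on all 4 arrays. Of the further protein-coding genes in this cluster, CCL11, CCL8 and CCL1 were also below the filter in both fractions, with log2 differences between -0.19 and 0.25 in total RNA and between 0.27 and 0.54 in ER-RNA. CCL13 has no probe set that names it alone. Of the 5 measured genes of this cluster, CCL2 was thus the 1 with a signal above the filter.

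**Figure D2:**
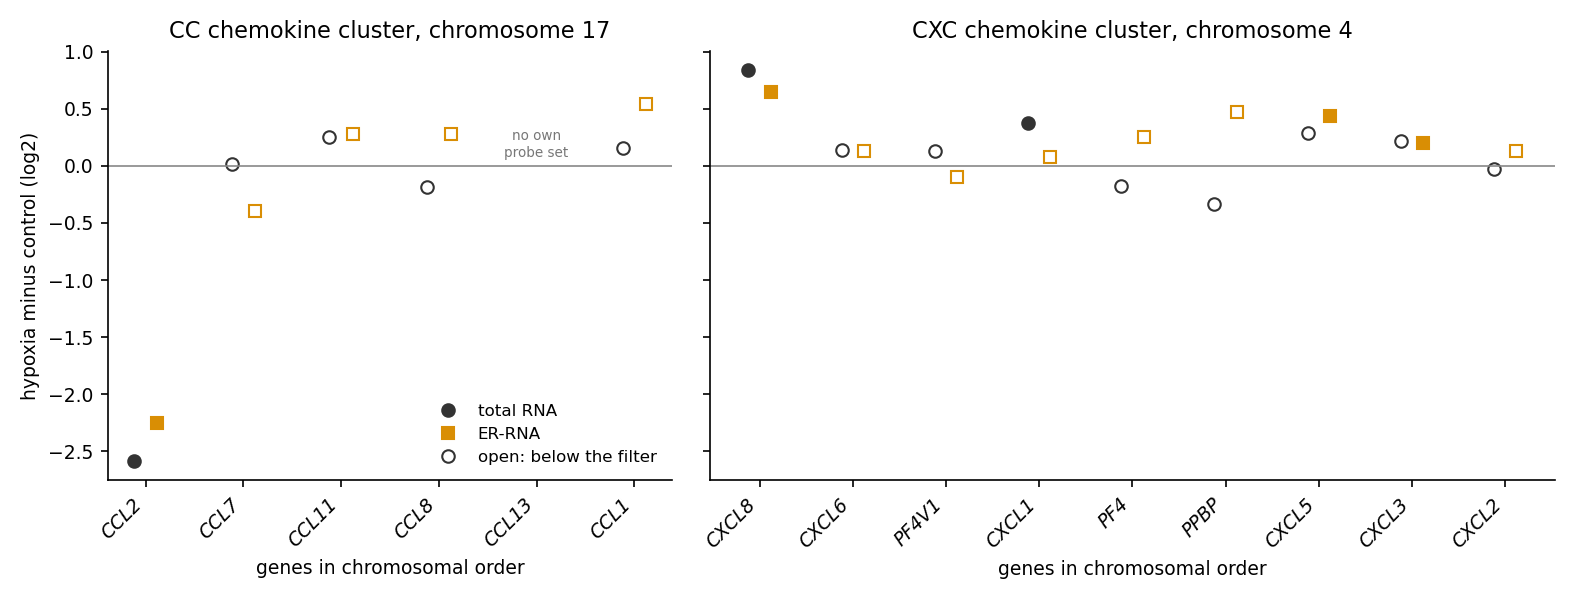
Log2 difference between hypoxia and control for the protein-coding genes of the CC chemokine cluster on chromosome 17 and the CXC chemokine cluster on chromosome 4, in RefSeq order, with circles for total RNA, squares for ER-RNA and open symbols below the expression filter. CCL2 stands at -2.58 and -2.25, while the other genes lie between -0.40 and 0.84.

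CXCL1, CXCL2, CXCL3 and CXCL5 attract neutrophils through CXCR2, and their genes share a cluster on chromosome 4 with CXCL8. CXCL1 read 7.86 in hypoxia and 7.48 in control in total RNA, just above both medians, with a z-score of 1.54, and 5.91 in hypoxia and 5.83 in control in ER-RNA, below them. CXCL5 read 7.30 in hypoxia and 7.02 in control in total RNA, below the medians, and 6.60 in hypoxia and 6.17 in control in ER-RNA, where it passed the filter through the hypoxia array only and had a z-score of 1.51. CXCL3 likewise passed in ER-RNA through the hypoxia array only, at 6.42 in hypoxia and 6.22 in control, and read 6.77 in hypoxia and 6.56 in control in total RNA. CXCL2 was below the median on all 4 arrays, at 5.53 in hypoxia and 5.56 in control in total RNA and at 4.87 in hypoxia and 4.74 in control in ER-RNA. None of these was called, and their log2 differences lay between -0.029 and 0.43. CXCL1, CXCL2 and CXCL3 are close copies of each other, and whether their probes tell them apart was not tested, so the separate values are uncertain.

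CXCL8, the best known neutrophil chemoattractant of the cluster, was the gene there with a call. It rose 1.79-fold in total RNA, with 8.90 in hypoxia and 8.07 in control (z-score 3.40). The ER-RNA values of 8.54 in hypoxia and 7.90 in control, 1.57-fold apart, were not called (z-score 2.15), and the call in total RNA was lost when the scaled MAD gave the SD, at a 2-fold threshold and with the filter at the 75% quantile. The receptor gene CXCR2 was below the filter in both fractions, at 5.27 in hypoxia and 4.93 in control in total RNA.

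The promoter windows of these CXC genes are shown around the NF-κB motif because this short element is what CXCL1, CXCL2, CXCL3, CXCL5 and IL6 have in common. NF-κB is the transcription factor that drives many inflammatory genes. The stretches lie upstream of the transcribed regions, are read 5′ to 3′ on the strand of the gene, and have in capitals the match to the motif, spelled GGGAN directly followed by TTTCC. They were taken from RefSeq (GRCh38.p14) at chr4:73869304-73869333 (CXCL1, plus strand), chr4:74099254-74099283 (CXCL2, minus strand), chr4:74038749-74038778 (CXCL3, minus strand), chr4:73998749-73998778 (CXCL5, minus strand) and chr7:22727117-22727146 (IL6, plus strand).
CXCL1: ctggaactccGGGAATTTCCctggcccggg
CXCL2: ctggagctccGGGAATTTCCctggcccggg
CXCL3: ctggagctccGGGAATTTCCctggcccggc
CXCL5: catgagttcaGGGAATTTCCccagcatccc
IL6: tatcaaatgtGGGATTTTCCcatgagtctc
The match begins 79 bases upstream of the start site in CXCL1 and CXCL3, 78 in CXCL2, 91 in CXCL5 and 73 in IL6. On either strand, 0.558% of the 35116 promoter windows of the same length hold this motif. Over the whole window CXCL1 was 82.5% identical to CXCL3 and 72.1% to CXCL2, but 52.6% to CXCL5. Of the members with a window (8 of 10, without CCL2 and LIF), none holds the hypoxia response core ACGTG, which 21.4% of windows hold, and CXCL5 holds GCGTG, which 36.5% hold. A match of letters is a description of the sequence and says nothing of binding. Among the 5 genes with the NF-κB match, the log2 differences in total RNA were 0.38 for CXCL1, 0.21 for CXCL3, 0.28 for CXCL5, -0.60 for IL6 and -0.029 for CXCL2.

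CXCL12, a chemokine that acts through CXCR4, lies outside both clusters. It was below the median on all 4 arrays, at 6.02 in hypoxia and 5.95 in control in total RNA and at 4.88 in hypoxia and 4.56 in control in ER-RNA. Of 21 chemokine receptors measured, 4 were expressed in each fraction, and 1 was called, CXCR4. It rose 2.42-fold in total RNA, with 8.61 in hypoxia and 7.33 in control (z-score 5.71). In ER-RNA, 6.57 in hypoxia stood against 5.61 in control, a 1.95-fold difference short of a call (z-score 2.61). In both fractions its control value was below the array median, so that it passed the filter through the hypoxia array alone and a filter on both arrays, or at the 75% quantile, removed it. ACKR3, the other receptor of CXCL12, was below the filter, at 5.93 in hypoxia and 6.05 in control in total RNA.

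ER-RNA and total RNA do not share a scale, so the fractions were compared only after subtraction of each array's median, and as a description. Cycloheximide is stated for cells used for subcellular fractions. If total RNA came from untreated cells, this treatment and the fraction cannot be told apart. CCL2 stood higher above the median in ER-RNA than in total RNA, by 1.17 in hypoxia and 0.85 in control. LIF stood lower in ER-RNA, by -1.18 in hypoxia and -1.42 in control. IL6 was higher in ER-RNA by 1.43 in hypoxia and 1.29 in control, but both of its total RNA values were below the array medians. C3AR1 differed by 0.16 in hypoxia and -0.60 in control. Over the 10851 genes expressed in both fractions this difference had a median of 0.12 in hypoxia, with 5% of genes under -1.19 and 5% over 1.50, and of 0.13 in control, with 5% under -1.23 and 5% over 1.59. CCL2, LIF, IL6 and C3AR1 thus did not share a place between the fractions. Of their values, that of LIF in control was the one outside these limits. The others lay within the range of genes at large, and nothing is read from their spread. IL6 did not pass the filter in total RNA, so it is not itself among the 10851 genes. The log2 difference between hypoxia and control was less negative in ER-RNA than in total RNA by 0.33 for CCL2, 0.25 for LIF and 0.77 for C3AR1. Over the same genes the difference of the differences had a median of -0.0081, with 5% of genes over 0.45. C3AR1 lay beyond this value, with its hypoxia signal under the median on both arrays, and CCL2 and LIF did not.

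**Figure D3:**
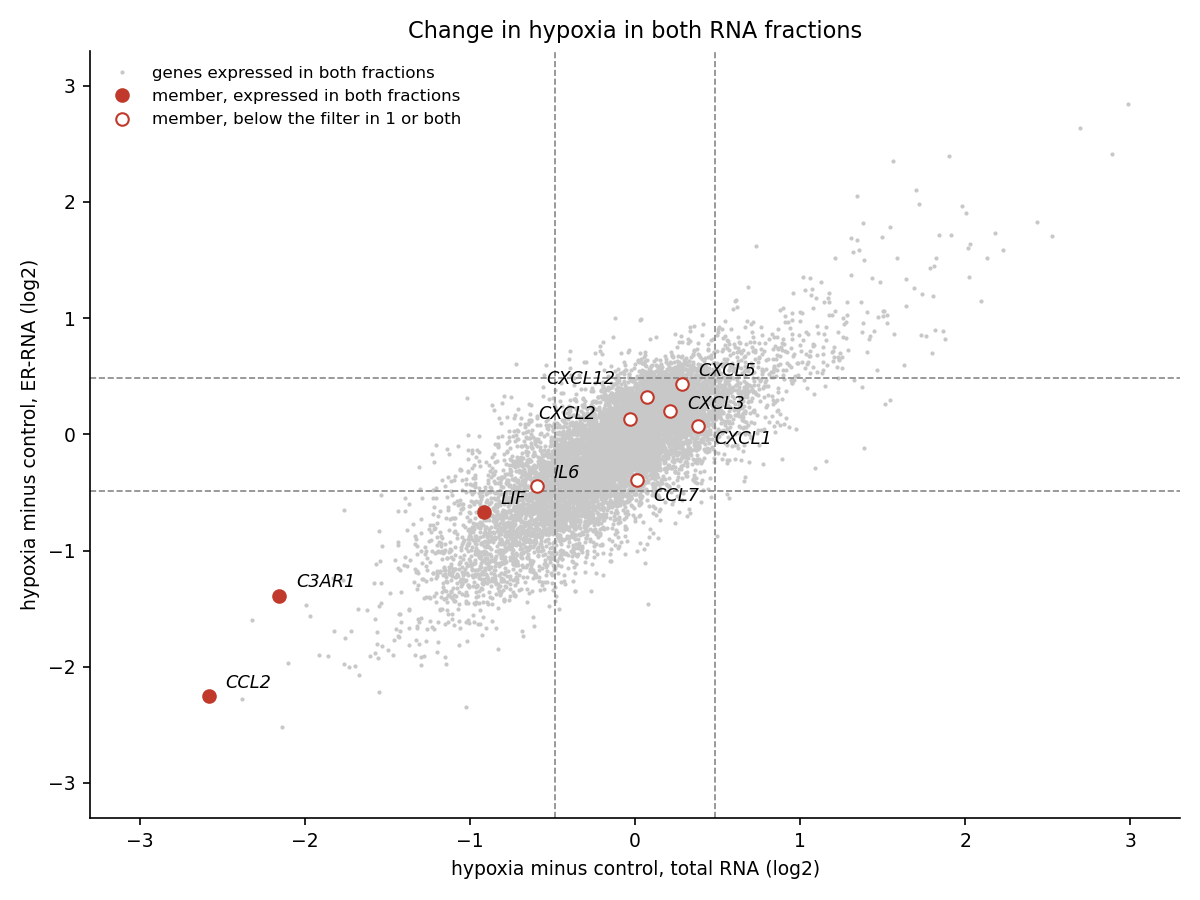
Log2 difference between hypoxia and control in ER-RNA (vertical axis) against total RNA (horizontal axis), for the 10 members (red, filled where expressed in both fractions) and for the genes expressed in both fractions (grey). Dashed lines mark a fold of 1.4. CCL2 (-2.58 and -2.25) and C3AR1 (-2.16 and -1.39) lie at the lower left edge of the cloud and the CXC members near its centre.

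Around the members, 12 lists of related genes were examined, which were drawn up with earlier results of these data known. Other inflammatory cytokines (22 measured) held the largest group of lower calls, with 4 of 12 expressed genes called lower in total RNA and 3 of 11 in ER-RNA. None was called higher in either. Over all expressed genes, 7.45% were called lower and 2.32% higher in total RNA, and 8.25% lower and 1.12% higher in ER-RNA. Since the lists were drawn up with results known, nothing is read from these shares. IL24, an IL-10 family cytokine, fell to 0.309 of its total RNA control, with 6.70 in hypoxia and 8.39 in control, and to 0.251 in ER-RNA, with 6.19 in hypoxia and 8.18 in control. Both of its hypoxia values were below the array medians, and a filter on both arrays, or at the 75% quantile, removed the calls. IL1A and IL1B encode the interleukin-1 cytokines, which activate NF-κB in the cells they reach. IL1A fell to 0.454 of its total RNA control, with 8.41 in hypoxia and 9.55 in control, and to 0.478 in ER-RNA, with 8.92 in hypoxia and 9.99 in control. Its calls in both fractions were lost when the scaled MAD gave the SD, and that in ER-RNA also after quantile normalization. IL1B fell to 0.559 in total RNA, with 11.43 in hypoxia and 12.27 in control, and to 0.603 in ER-RNA, with 11.57 in hypoxia and 12.30 in control and a z-score of -3.05, a call lost under 2 of the 3 other normalizations and with probe sets naming exactly 1 gene. At a 2-fold threshold or with the scaled MAD it was lost in both fractions. CSF1, a growth factor of macrophages, was the gene called in total RNA alone, at 0.542 of control there and at 0.834 of it in ER-RNA, and it was not followed under the alternatives. The 22 genes had a median log2 difference of 0.014 in total RNA and of 0.11 in ER-RNA, but about as many genes lay below the expression filter as above it. Among the 12 expressed in total RNA the median was -0.25, beside -0.058 over all expressed genes. Of these 12, 5 were past 1.4-fold lower, as were 18.6% of all expressed genes. Among the 11 expressed in ER-RNA the median was -0.23, beside -0.037, and 4 were past that fold, as were 21.4% of all expressed genes.

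Among the other chemokine ligands, 0 of 18 CC chemokines and 1 of 15 CXC and related chemokines, CXCL8, were called in total RNA, and 0 of either in ER-RNA. Only 5 of the 18 and 2 of the 15 were expressed in total RNA. IL-6 family ligands (6 measured) and the JAK and STAT3 signalling genes (12 measured) had no call in either fraction. By the fold alone, 1 of 4 expressed ligands of this family was higher in total RNA and 2 of 4 in ER-RNA. None was lower. Of 11 expressed JAK and STAT3 genes, 1 was lower in each fraction and none higher. Over all expressed genes, 6.2% were higher and 18.6% lower by this fold in total RNA, and 6.53% higher and 21.4% lower in ER-RNA. Nothing is read from these counts. Of 16 measured complement genes, 9 were expressed in each fraction. C1S, a protease of the classical pathway, was called lower in total RNA at 0.572 of control and stood at 0.990 of control in ER-RNA. Its call was lost under quantile and loess normalization and in 3 further settings.

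**Figure D4:**
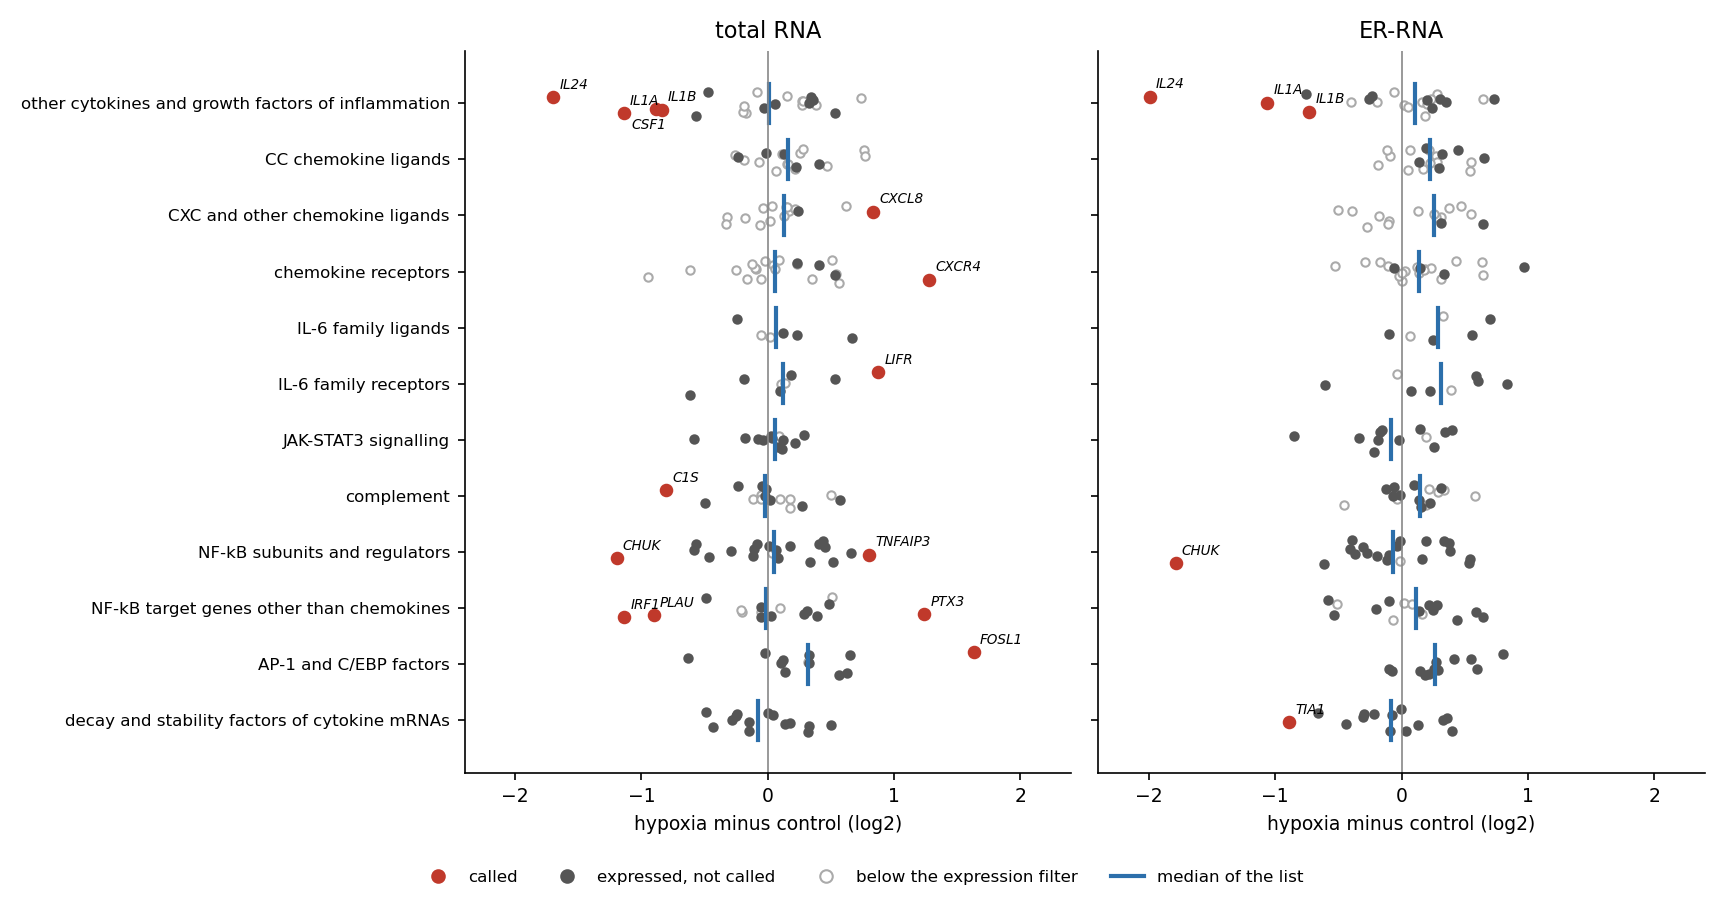
Log2 difference between hypoxia and control for each measured gene of 12 lists related to the members, in total RNA (left) and ER-RNA (right). Called genes are red and named, open symbols are below the expression filter, and blue bars are list medians, which lie between -0.088 and 0.32 while single cytokine genes reach -1.99.

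NF-κB subunits and regulators were expressed in 19 of 20 cases in each fraction, with calls in both directions. CHUK, which encodes the kinase IKKα, fell to 0.436 of its total RNA control, with 7.37 in hypoxia and 8.56 in control, and to 0.289 in ER-RNA, with 6.63 in hypoxia and 8.41 in control. In total RNA its hypoxia value was below the array median, and a filter on both arrays, or at the 75% quantile, removed this call. TNFAIP3, a feedback inhibitor of the pathway, rose 1.74-fold in total RNA, with 8.99 in hypoxia and 8.19 in control. In ER-RNA it differed by 1.26-fold and was not called. Its call was lost when array medians were subtracted, when the scaled MAD gave the SD, at a 2-fold threshold and with the filter at the 75% quantile. NFKB1 and RELA, the subunits of the common dimer, were not called. The 20 genes had a median log2 difference of 0.049 in total RNA and of -0.067 in ER-RNA.

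Of 16 measured NF-κB target genes other than chemokines, 11 were expressed in each fraction. PTX3, a soluble pattern recognition protein, rose 2.36-fold in total RNA, and its 1.56-fold difference in ER-RNA was not called. IRF1, an interferon-regulated transcription factor, fell to 0.454 of its total RNA control and stood at 0.690 of its ER-RNA control. PLAU, the gene for urokinase, fell to 0.534 in total RNA and stood at 0.669 in ER-RNA. The calls of PTX3 and PLAU were lost when the scaled MAD gave the SD, that of PLAU also at a 2-fold threshold, and that of IRF1 with the filter at the 75% quantile. None of the 16 was called in ER-RNA. FOSL1, an AP-1 subunit, rose 3.10-fold in total RNA, with 11.67 in hypoxia and 10.04 in control. Its 1.51-fold difference in ER-RNA was not called (z-score 1.97). It was the gene called among 12 AP-1 and C/EBP factors, whose log2 differences had a median of 0.32 in total RNA and of 0.26 in ER-RNA. Of 14 factors that regulate the decay or translation of cytokine mRNAs, TIA1 was called lower in ER-RNA, at 0.539 of control with 7.52 in hypoxia and 8.41 in control, a call lost under quantile and loess normalization and in 3 further settings, and differed by 1.10-fold in total RNA.

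Among all genes, the 5 whose 4 values were nearest to those of CCL2, each taken relative to its array median and compared by Euclidean distance, were FARSB, PSAT1, UTP11, NQO1 and CACYBP, at distances of 0.82, 1.22, 1.24, 1.24 and 1.25 on the log2 scale. FARSB encodes a subunit of phenylalanyl-tRNA synthetase. It read 9.21 in hypoxia and 11.12 in control in total RNA and 8.45 in hypoxia and 10.35 in control in ER-RNA. PSAT1 acts in serine synthesis, UTP11 in ribosome biogenesis, and NQO1 is a quinone reductase. Each of the 5 was called lower in both fractions, with log2 differences between -2.10 and -1.13 in total RNA and between -1.97 and -1.40 in ER-RNA. That they were lower follows from their choice by nearness to CCL2, and nothing is read from it. None of them is a chemokine or cytokine. Since probe sets differ in brightness, the distance describes these values and not transcript numbers.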

How the data were processed

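The authors deposited log2 values made by RMA from 4 Affymetrix Human Gene 1.0 ST arrays. Partek 6.4 and RMA are named in the submitters' processing notes, with no word on whether all arrays entered a single normalization. Of 33297 probe sets, 19460 name 1 gene in the platform annotation, 1754 name several and 12083 none. Symbols were updated through the gene identifier for 19429 of them. Where a gene had several, that brightest on average was used.

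Calls followed the thresholds in the methods, fitted over all probe sets with R 4.3.3, but did not reproduce all calls of the paper. HK2 in ER-RNA, marked as significant in the paper, was not called here. The paper also counts more genes higher and fewer lower in each fraction, over its own set of expressed genes. A gene given as not called is thus not called by the rule used here. Probe sets under the 50% quantile of both arrays of a pair were dropped, the SD was read from a loess fit (span 0.75, degree 2) of the SD of the pair on its mean, and a fold over 1.4 with a z-score over 3 was called. The methods describe this model as made for treatment and control separately. Unlike that, both arrays of a pair entered 1 fit here, on which every z-score depends. The log2 difference was divided by this SD of single values and not by the larger SD of differences. In the alternative with the scaled MAD it was divided by an SD of differences, so that setting changed the scale as well as the estimator. On simulated data, only the recovery and direction of changes put in by design were checked. Calls among probe sets without such a change were not counted. There is 1 array per condition, so no test was made, and their number sets the precision.

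The members, lists and rules were chosen with earlier results of these data known. Genes outside the members are named by rule, namely up to 3 called genes per list and the 5 nearest to CCL2. CSF1 and genes given as receptors, ligands, neighbours or markers were named in addition after their values were seen, and so was the form of the NF-κB motif. Alternatives covered normalization (limma 3.58.1), filter, SD model, fold threshold and probe sets. Promoter windows (250 bases before and 50 after the start) came from RefSeq, GRCh38.p14, for 8 of 10 members and were aligned with Biopython 1.88.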

Additional observations from a re-analysis of the deposited data

Results flagged for a closer look

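Among the 10 members and the other genes named by rule, 3 had log2 differences of opposite sign in the 2 fractions. CCL7 had a log2 difference between hypoxia and control of 0.012 in total RNA and of -0.40 in ER-RNA. CXCL2 had -0.029 in total RNA and 0.13 in ER-RNA. Under the 3 other normalizations CCL7 was at -0.065, -0.096 and -0.10 in total RNA, the same sign as in ER-RNA, and CXCL2 was at -0.010 in ER-RNA after loess. Both genes were below the expression filter in both fractions, so these values have no call on either side. TIA1, an RNA-binding repressor of translation, had 0.14 in total RNA, where it was not called, and -0.89 in ER-RNA, where it was called lower. The differences between the fractions were not tested, since each rests on 1 array per condition.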

How the results depend on the processing

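The direction of CCL2, C3AR1 and LIF was negative in both fractions under each normalization tried. Under the alternatives the number of members called lower in total RNA lay between 2 and 4, against 3 as reported, and CCL2 was called under each of them. In ER-RNA 2 members were called lower, and this became 1 (CCL2) when both arrays had to exceed the 50% quantile, when 1 array had to exceed the 75% quantile, and when only probe sets naming exactly 1 gene entered the fit. With the 75% quantile, the members past the 1.4-fold threshold in ER-RNA also numbered 1. By fold change alone 3 were called in ER-RNA. IL6 passed the fold threshold in ER-RNA after each of the 3 other normalizations. The genes named from the lists had 18 calls over both fractions. Under alternatives applied to them after seeing the data 2 of these (FOSL1 in total RNA and CHUK in ER-RNA) held in every setting, 16 were lost in at least 1 and none changed direction. Calls were also gained in ER-RNA, higher for CXCR4 without the expression filter and for LIFR with the filter on both arrays. By fold change alone CXCL8, CXCR4, LIFR, PTX3 and FOSL1 were called higher there, and IRF1 and PLAU lower. Small differences of 4 members changed sign under at least 1 normalization: CCL7 (as low as -0.10) and CXCL12 (-0.052) in total RNA, CXCL1 (-0.075) and CXCL2 (-0.010) in ER-RNA. Medians near 0 likewise changed sign in total RNA for 7 of the 12 lists, namely chemokine receptors (-0.062), IL-6 family ligands (-0.016), JAK and STAT3 genes (-0.020), other cytokines (-0.063), NF-κB regulators (-0.028), NF-κB targets (0.0075) and decay factors (0.036), and in ER-RNA for JAK and STAT3 genes (0.032), NF-κB targets (-0.024) and decay factors (0.061). No paired analysis was possible because each condition has 1 array per fraction. Pooling leaves no spread between the 5 experiments.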
